A study of Mus musculus with 6 samples.

Results

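DNA replication and S phase genes were followed in RNA of mouse LSK cells. These bone marrow cells lack lineage markers, carry Kit and Sca1 on their surface, and hold the haematopoietic stem cells and earliest progenitors. The 36 genes were taken by name from a list of replication, nucleotide supply and S phase chromatin genes, and all 36 were found among the 24063 symbols of the deposited count table. All 36 also passed the filter on low counts, which kept 13679 symbols.

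The series compared 3 libraries from mice labelled Arid2fl/fl:MxCre+ (knockout) with 3 libraries from mice labelled MxCre+ (control), all of strain C57/BL6. The titles of the control libraries name wild-type Arid2 (Arid2wt). Mice of both groups carried the Mx1-Cre transgene and received pIpC, an interferon inducer that switches on the Mx1 promoter, at 6 to 8 weeks of age. LSK cells were sorted 6 weeks later. The Mx1 promoter answers interferon in many blood cells and also outside the marrow, so recombination is not limited to stem cells, and the share of recombined LSK cells is not given in the labels. Arid2 encodes a subunit of PBAF, one of the SWI/SNF chromatin remodellers. The labels name no animal or litter for any library, so p-values measure only how these libraries differ from each other.

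Libraries held from 12408966 to 28185678 counted reads, and each of the 36 genes had between 183 reads (Dscc1 in its shallowest library) and 15188 reads (Mcm6) in a library. Arid2 had 162, 150 and 155 CPM (counts per 1000000 reads after TMM scaling) in the libraries labelled knockout and 165, 154 and 148 CPM in the controls, and its log2 fold change was 0.00 (standard error 0.06, adjusted p = 0.99 by edgeR). A count over the whole gene does not show whether the floxed part is missing, so it does not check the labels, and "knockout" below means labelled knockout. The sexes were unequal: Xist was between 1919 and 2021 CPM in all knockout libraries and control replicate 2, and 6.3 and 11.4 CPM in control replicates 1 and 3, where Y-linked genes summed to 257 and 266 CPM. A fit with a sex term therefore compares the knockout libraries with control replicate 2 alone. Control replicate 3 had the highest level of 22.6% and the lowest of 22.7% of all genes tested. Both genes of the sort gate were lower in every knockout library than in any control. Ly6a, which encodes Sca1, had 12.4 to 15.3 against 18.2 to 22.3 CPM (log2 fold change −0.56, adjusted p = 0.0378 by edgeR), and Kit had a log2 fold change of −0.34 (adjusted p = 0.0814 by edgeR and 0.0187 by DESeq2). Their part in the results below was not tested.

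DNA is copied in S phase from origins that are licensed beforehand. The MCM proteins form a ring of 6 subunits that is loaded in G1 and becomes the replicative helicase with Cdc45 and GINS, after which primase, polymerases, the sliding clamp PCNA and its loader follow. Most of these genes are transcribed at the G1 to S boundary by E2F factors, and the deoxynucleotides come from ribonucleotide reductase and thymidylate synthase. In adult marrow the most primitive stem cells divide rarely, while the progenitors that make up most LSK cells cycle often. In bulk RNA, fewer cells in S phase and less RNA per cell cannot be told apart.

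Promoter stretches of the genes past the test are shown with those of Mcm5 and Mcm6, helicase genes with matches to E2F words. Mcm6 was added after its sequence was seen. RefSeq entries of build GRCm38.p6 were found for 27 of the 36 genes, and each stretch is the 250 bases before the RefSeq start, 5′ to 3′ on the gene's strand. GENCODE, used here for gene positions, can place the start elsewhere (at 24708241 for Rrm2, 72476159 for Cdca7 and 114130386 for Ung, each inside the stretch). For Mcm5 (75109569) and Mcm6 (128359664) its start lies downstream of the stretch. The distances below therefore hold for the RefSeq start. Capitals mark matches to the E2F words TTTCCCGC, TTTCGCGC, TTTGCCGC and TTTGGCGC, to the CCAAT box and to the CHR word TTTGAA, each on both strands. Rrm2 (chr12:24708004-24708253, plus strand) encodes the small subunit of ribonucleotide reductase, Cdca7 (chr2:72475969-72476218, plus) a zinc finger protein that works with the remodeller HELLS, and Ung (chr5:114130185-114130434, plus) uracil-DNA glycosylase. The Mcm5 stretch is chr8:75109259-75109508 on the plus strand and the Mcm6 stretch chr1:128359706-128359955 on the minus strand.
Rrm2: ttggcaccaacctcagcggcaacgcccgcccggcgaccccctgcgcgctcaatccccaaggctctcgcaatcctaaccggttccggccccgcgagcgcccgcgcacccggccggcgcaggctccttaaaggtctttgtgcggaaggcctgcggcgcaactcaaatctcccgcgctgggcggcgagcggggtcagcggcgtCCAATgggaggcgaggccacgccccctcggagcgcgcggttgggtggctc
Cdca7: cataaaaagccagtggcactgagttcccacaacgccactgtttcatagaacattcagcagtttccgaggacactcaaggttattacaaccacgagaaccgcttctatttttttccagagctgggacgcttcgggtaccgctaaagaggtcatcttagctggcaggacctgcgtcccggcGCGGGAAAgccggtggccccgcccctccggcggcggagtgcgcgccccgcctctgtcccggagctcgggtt
Ung: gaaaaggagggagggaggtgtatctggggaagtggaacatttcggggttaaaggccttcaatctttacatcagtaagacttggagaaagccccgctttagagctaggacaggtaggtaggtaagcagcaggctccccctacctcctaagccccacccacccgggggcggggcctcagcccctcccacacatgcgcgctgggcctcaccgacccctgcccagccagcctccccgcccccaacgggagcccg
Mcm5: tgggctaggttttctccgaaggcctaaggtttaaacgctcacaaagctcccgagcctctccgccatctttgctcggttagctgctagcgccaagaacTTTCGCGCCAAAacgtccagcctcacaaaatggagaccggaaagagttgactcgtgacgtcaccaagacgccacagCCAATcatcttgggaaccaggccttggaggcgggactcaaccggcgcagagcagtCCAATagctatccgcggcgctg
Mcm6: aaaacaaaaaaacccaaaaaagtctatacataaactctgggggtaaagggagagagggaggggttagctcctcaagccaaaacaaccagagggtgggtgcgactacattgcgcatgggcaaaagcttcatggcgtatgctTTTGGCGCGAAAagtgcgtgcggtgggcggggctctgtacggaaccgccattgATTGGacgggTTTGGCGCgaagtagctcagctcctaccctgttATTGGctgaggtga

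Cdca7 had 1 E2F match, 71 bases before the start, and no CCAAT box. Rrm2 had a CCAAT box 50 bases before the start and no E2F match, and the Ung stretch held none of the words. Mcm5 had 2 overlapping E2F matches (from 153 and 149 bases before the start) and 2 CCAAT boxes. Mcm6 had 3 E2F matches, of which 2 overlap (from 110 and 106 bases before the start), and 2 CCAAT boxes. Of the 27 genes with a promoter entry, 8 (29.6%) held an E2F word, 19 (70.4%) a CCAAT box and 6 (22.2%) a CHR word in at least 1 stretch. Over all 27025 genes of the table, non-coding ones included, the shares were 2.16%, 37.5% and 18.3%. The stretches also differed in base content, with a median GC of 57.8% for the replication genes and 52.4% over all stretches. The shares were not adjusted for it. The 8 genes with an E2F word were Casp8ap2, Cdc6, Cdca7, Dtl, Mcm5, Mcm6, Mcm7 and Pola1, and their median log2 fold change was −0.07, against 0.05 for the other 19. The split went the other way for the CCAAT box (0.05 with and −0.07 without) and the CHR word (0.10 with and −0.02 without). The differences between these medians were not tested. These are letter matches in a short window and were not tested for binding.

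Most of the 36 genes were more abundant than the typical gene tested. Per length of annotated exons, 34 of 36 lay above the median gene tested. The median of the 36 was 22.9 RPKM (CPM per kilobase of all exons annotated to the gene) against 7.81 RPKM over all genes tested. The clamp gene Pcna was highest at 162 RPKM, followed by the helicase genes Mcm5 (110), Mcm6 (109.5) and Mcm3 (103 RPKM). Dscc1, of an alternative clamp loader, was lowest at 3.62 RPKM, and Exo1, a nuclease of mismatch repair and end resection, had 5.54 RPKM. Exon lengths count every annotated transcript, so the RPKM of genes with long rare transcripts, such as Rrm1, Dtl and Atad2, is understated.

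As a set, the 36 genes stood at nearly the same level in both groups. Their mean log2 CPM was 7.02, 6.90 and 6.93 in knockout replicates 1 to 3 and 7.01, 6.97 and 6.94 in control replicates 1 to 3. Knockout replicate 1 and control replicate 1 were the highest libraries and knockout replicate 2 the lowest, and the groups overlapped. The group means were 6.95 ± 0.061 and 6.97 ± 0.036 (SD, n = 3 each), a difference of −0.03, smaller than the SD within groups of 0.0497. The median log2 fold change of the 36 was −0.01 (quartiles −0.13 and 0.08), with 17 positive and 19 negative, beside a median of −0.0016 over all genes tested (quartiles −0.14 and 0.15).

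Individually, 1 gene rose (Rrm2), 2 fell (Cdca7 and Ung) and 33 did not pass the test (edgeR quasi-likelihood test, Benjamini-Hochberg adjusted p under 0.05 over all genes tested). These 3 are 8.33% of the list, and 8.42% of all genes tested were called (3.85% higher and 4.58% lower), so the share is that of the background. With an unadjusted p under 0.05 there were 9 of the 36, against 24.9% of all genes. The groups did not overlap for 12 of the 36 (33.3%), 3 higher and 9 lower in the knockout libraries. Over all genes tested the groups did not overlap for 31.2%, 15.1% higher and 16.1% lower. With the sex term none of the 36 was called, and 43 of all genes were (0.314%). DESeq2 without that term called 4 of the 36, and of all genes it called 833 higher and 835 lower.

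In the fit with group as the single term, which does not separate group from sex, the measurements were precise enough to bound most changes. With the sex term the standard errors were larger (0.090 against 0.061 for Mcm6 and 0.083 against 0.057 for Cdca7). The intervals below are without that term. The 95% confidence interval of the log2 fold change lay wholly between −0.5 and 0.5 (1.41-fold) for 34 of 36 genes, the exceptions being Rrm2 and Cdca7, and for 57.3% of all genes tested. It lay between −0.25 and 0.25 for 15 of 36 and for 19.8% of all genes. The median SD of log2 CPM within groups was 0.075 for the 36 genes and 0.136 over all genes tested, most of which have fewer reads.

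**Figure D1:**
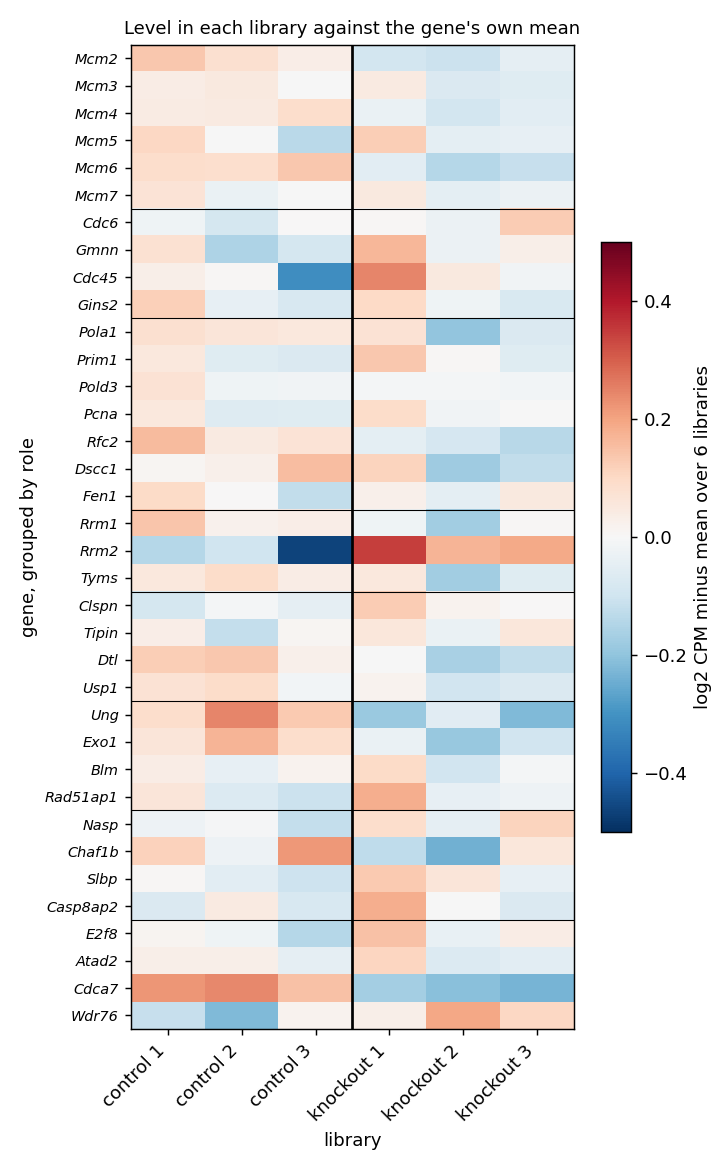
Level of each of the 36 genes in each of the 6 libraries, as log2 CPM minus the gene's mean over the libraries (colour), with genes in rows grouped by role and libraries in columns. Rrm2 is higher and Cdca7 and Ung are lower in all 3 knockout libraries. Knockout replicate 1 holds the highest value of 13 of the 36 genes and control replicate 1 of 8.

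Libraries of 1 group differed in many of the genes at once. Knockout replicate 1 had the highest level of 13 of the 36 genes and the lowest of 0, whereas knockout replicate 2 had the highest of 1 and the lowest of 15. Over all genes tested these libraries held the highest level of 18.8% and 10.9% and the lowest of 18.7% and 12.3%. Control replicate 1 was highest for 8 of the 36 and lowest for 1, and control replicate 3 highest for 4 and lowest for 11. Pold3, a subunit of DNA polymerase delta, varied least, with its highest library 1.07 times its lowest, and Rrm2 most, at 1.75 times.

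Of the 6 helicase genes Mcm2 to Mcm7, none passed the test, though Mcm2, Mcm4 and Mcm6 were lower in every knockout library than in any control. Mcm6 had 492, 462 and 470 CPM in the knockout libraries and 542, 540 and 560 CPM in the controls. Its log2 fold change was −0.21 (standard error 0.06, adjusted p = 0.0771 by edgeR), and DESeq2 called it lower (adjusted p = 0.0255). Mcm2 had 345, 340 and 356 CPM against 402, 388 and 375 CPM in the controls, with a log2 fold change of −0.16 (standard error 0.06, adjusted p = 0.129 by edgeR). The groups of Mcm2 are thus close, with 356 and 375 CPM as the nearest values. Mcm4 had 211, 203 and 208 CPM against 222, 223 and 230 CPM, with a log2 fold change of −0.12 (standard error 0.05, adjusted p = 0.225 by edgeR).

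The other helicase genes overlapped between the groups. Mcm3 had 399, 367 and 370 CPM in the knockout libraries and 397, 400 and 386 CPM in the controls. Mcm5 had 479, 425 and 428 CPM against 473, 439 and 401 CPM, and Mcm7 had 436, 407 and 412 CPM against 441, 412 and 420 CPM. In these genes knockout replicate 1 lay with the higher controls. Their log2 fold changes were −0.06, 0.02 and −0.02, and those of Mcm5 and Mcm7 changed sign when single libraries were left out (−0.04 to 0.08 and −0.05 to 0.01). Per length, Mcm4 (60.2 RPKM) lay below Mcm3, Mcm5, Mcm6 and Mcm7 (95.2 to 110 RPKM) in every library. Mcm2 had 52.9 RPKM, a value that rests on 6956 annotated exon bases against 3589 to 4666 for the other MCM genes, so its place among them is uncertain.

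None of the 4 licensing and helicase activation genes passed the test. Cdc6, which loads the MCM ring, had 75.6, 73.8 and 82.3 CPM in the knockout libraries and 74.3, 70.9 and 75.4 CPM in the controls, a log2 fold change of 0.07. Gmnn encodes geminin, which blocks relicensing, and had 0.11. Cdc45, a partner of the helicase, had the widest interval of the 36 genes apart from Dscc1, with a log2 fold change of 0.18 (95% interval −0.06 to 0.42). Its lowest level was in control replicate 3 (63.9 CPM) and its highest in knockout replicate 1 (93.8 CPM). Gins2, a GINS subunit, had 0.00, with −0.05 to 0.06 when single libraries were left out, and 67.3% of its annotated exon bases lie opposite Gse1 exons, and whether the counting used strand is not stated.

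None of the 7 genes of polymerases, clamp and clamp loading passed the test. Rfc2, a subunit of the clamp loader, had 189, 185 and 178 CPM in the knockout libraries and 219, 202 and 206 CPM in the controls. The groups did not overlap, and the log2 fold change was −0.18 (standard error 0.06, adjusted p = 0.103 by edgeR). Of the exon bases of Rfc2, 15.1% lie opposite Lat2. Pcna had 413, 383 and 387 CPM against 403, 371 and 372 CPM, a log2 fold change of 0.05 (95% interval −0.10 to 0.20). Its groups overlapped, with replicate 1 highest in each. Pola1, the catalytic subunit of the polymerase that starts each strand and an X-linked gene, had −0.13, and the primase gene Prim1 had 0.06. Pold3 had −0.02, Dscc1 −0.12 and the flap nuclease gene Fen1 0.01. Fen1 shares 78.8% of its exon bases with an antisense gene model that the count table does not list.

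Of the 3 deoxynucleotide supply genes, Rrm2 rose and Rrm1 and Tyms did not pass the test. Rrm2, the small subunit that is made in S phase and is usually limiting, had 278, 246 and 249 CPM in the knockout libraries and 198, 204 and 159 CPM in the controls. All knockout values lay above all controls, and control replicate 3 was the lowest. Rrm2 rose 1.38-fold (258 ± 17.5 against 187 ± 24.6 CPM, mean ± SD over 3 libraries each; log2 fold change 0.46, standard error 0.10, adjusted p = 0.0307 by edgeR). Its call was kept without control replicate 2 and without control replicate 3, where the log2 fold change was 0.54 and 0.36, and lost without any 1 of the knockout replicates or control replicate 1 (adjusted p 0.0639 to 0.0967). With the sex term the value was 0.34 (adjusted p = 0.403).

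Rrm1, the large subunit, had 374, 337 and 382 CPM in the knockout libraries against 418, 386 and 389 CPM in the controls. Its groups did not overlap either, in the opposite direction to Rrm2, but lay close (382 and 386 CPM as the nearest values), and it did not pass the test (log2 fold change −0.13, standard error 0.07, adjusted p = 0.321 by edgeR). The ratio of Rrm2 to Rrm1, both per length, was 2.95, 2.90 and 2.60 in the knockout libraries and 1.88, 2.10 and 1.62 in the controls. That difference between the groups was not tested. The size of the ratio rests on 11012 annotated exon bases for Rrm1 against 2771 for Rrm2, so which gene has more transcripts is uncertain. In CPM, Rrm1 lay above Rrm2 in every library. Tyms, thymidylate synthase, had 66.8, 57.1 and 61.7 CPM against 66.8, 68.6 and 66.1 CPM, a log2 fold change of −0.12 (edgeR adjusted p = 0.354). In Tyms, knockout replicate 1 lay among the controls and replicates 2 and 3 lay below them.

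**Figure D2:**
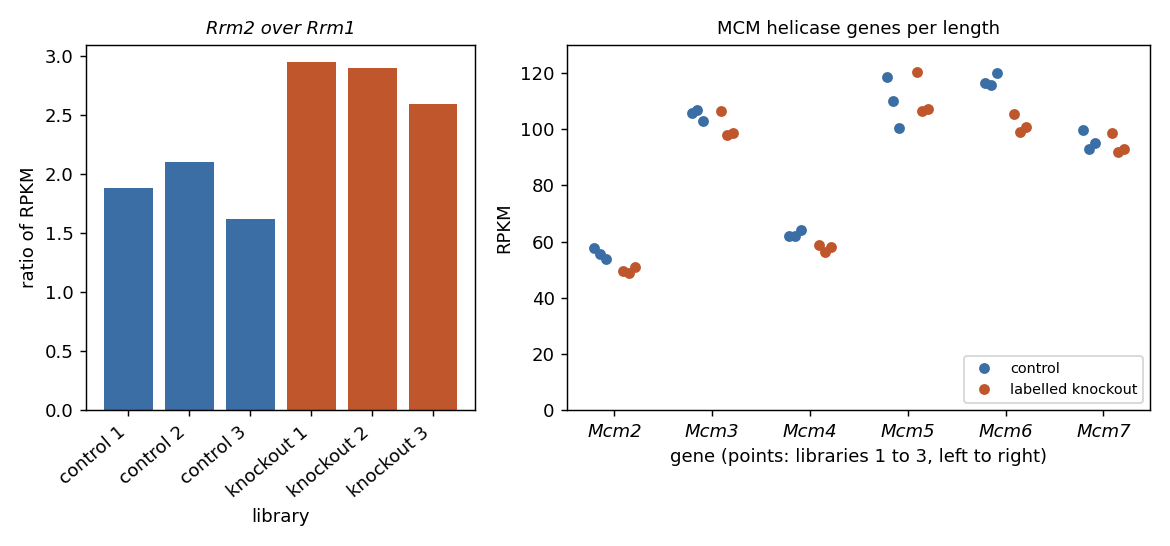
Left, ratio of Rrm2 to Rrm1 in each library, both in RPKM (bars). Right, RPKM of Mcm2 to Mcm7 in each library (points, control left and knockout right of each gene). The Rrm2 to Rrm1 ratio is 2.60 to 2.95 in the knockout libraries and 1.62 to 2.10 in the controls, and its size depends on the long annotated exons of Rrm1. Mcm4 lies below Mcm3, Mcm5, Mcm6 and Mcm7 in every library, while the place of Mcm2 depends on its long annotated exons.

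Fork protection and checkpoint genes did not pass the test in either direction. Clspn, claspin, which relays the replication checkpoint to Chk1, had 112, 104 and 103 CPM in the knockout libraries and 96.5, 102 and 99.4 CPM in the controls. The groups did not overlap but lay close, with a log2 fold change of 0.10 (standard error 0.06, adjusted p = 0.375 by edgeR). Dtl, the substrate receptor of the ubiquitin ligase that destroys Cdt1 at PCNA, went the other way, at 108, 96.3 and 98.7 against 117, 118 and 110 CPM (log2 fold change −0.19, standard error 0.07, adjusted p = 0.121 by edgeR). Tipin, which travels with the fork, had 0.05, and Usp1, which removes ubiquitin from PCNA, −0.10.

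Of the 4 repair genes, Ung fell. This enzyme removes uracil that is built into DNA during replication or left by deamination. It had 40.8, 44.5 and 39.8 CPM in the knockout libraries and 49.2, 54.9 and 50.7 CPM in the controls, with no overlap. Its level was 0.81 times that of the controls (41.7 ± 2.48 against 51.6 ± 2.92 CPM, mean ± SD over 3 libraries each; log2 fold change −0.31, standard error 0.08, adjusted p = 0.0472 by edgeR). The call was lost whichever library was left out (adjusted p 0.0729 to 0.142), with DESeq2 size factors in edgeR (0.0531) and with the sex term (log2 fold change −0.39, adjusted p = 0.197). Exo1 had 45.4, 40.8 and 43.5 CPM against 48.5, 52.3 and 49.5 CPM, and likewise did not overlap (log2 fold change −0.21, standard error 0.07, adjusted p = 0.113 by edgeR). The helicase gene Blm and the recombination gene Rad51ap1 overlapped, with −0.01 and 0.08.

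Histone supply and chromatin assembly genes did not pass the test. Nasp, a histone chaperone, and Slbp, which binds the stem-loop of histone mRNA, both had 0.10, and Casp8ap2, needed for histone mRNA processing, had 0.07. Chaf1b, a subunit of the CAF-1 chaperone that deposits histones behind the fork, had 67.5, 62.4 and 76.6 CPM in the knockout libraries and 79.8, 72.5 and 85.7 CPM in the controls. These overlap, and the log2 fold change was −0.21 (standard error 0.09, adjusted p = 0.219 by edgeR), or −0.08 with the sex term.

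Among E2F-linked transcription and chromatin factors, Cdca7 fell. It had 185, 180 and 177 CPM in the knockout libraries and 242, 246 and 230 CPM in the controls, so that the groups were far apart against a narrow spread. Its level was 0.75 times that of the controls (180 ± 4.0 against 239 ± 8.1 CPM, mean ± SD over 3 libraries each; log2 fold change −0.41, standard error 0.06, adjusted p = 0.0068 by edgeR). Cdca7 ranked 147 of 13679 genes by p and kept its call in all 6 fits that leave out a library (log2 fold change −0.44 to −0.38, adjusted p 0.00744 to 0.0406). With the sex term its log2 fold change was −0.45 and the adjusted p 0.0945, and its level in control replicate 2, the sole control with Xist, was the highest of the controls.

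Wdr76, a WD repeat protein, had 55.8, 62.5 and 58.7 CPM against 50.4, 46.9 and 55.3 CPM, without overlap and with a log2 fold change of 0.22 (standard error 0.08, adjusted p = 0.143 by edgeR). Atad2, a bromodomain ATPase, and E2f8, an E2F that represses, had −0.01 and 0.10. Of the 36 genes, the 3 past the test therefore belong to 3 of the 8 roles, with 1 in each.

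**Figure D3:**
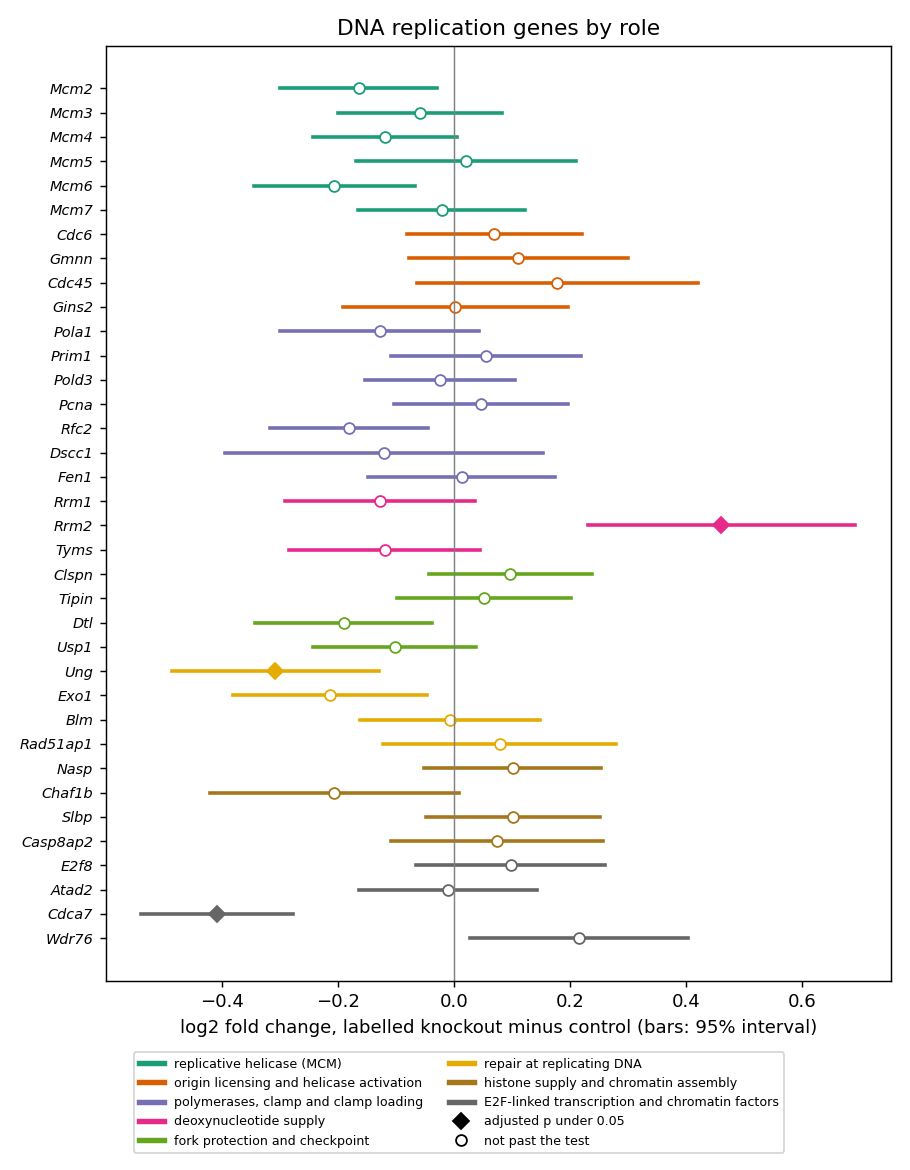
Log2 fold change of each of the 36 genes, knockout minus control (x axis), with its 95% confidence interval (bars), by gene (y axis) and coloured by role; filled diamonds passed the test. Rrm2 lies at 0.46, Cdca7 at −0.41 and Ung at −0.31, and the other 33 lie between −0.21 and 0.22.

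**Figure D4:**
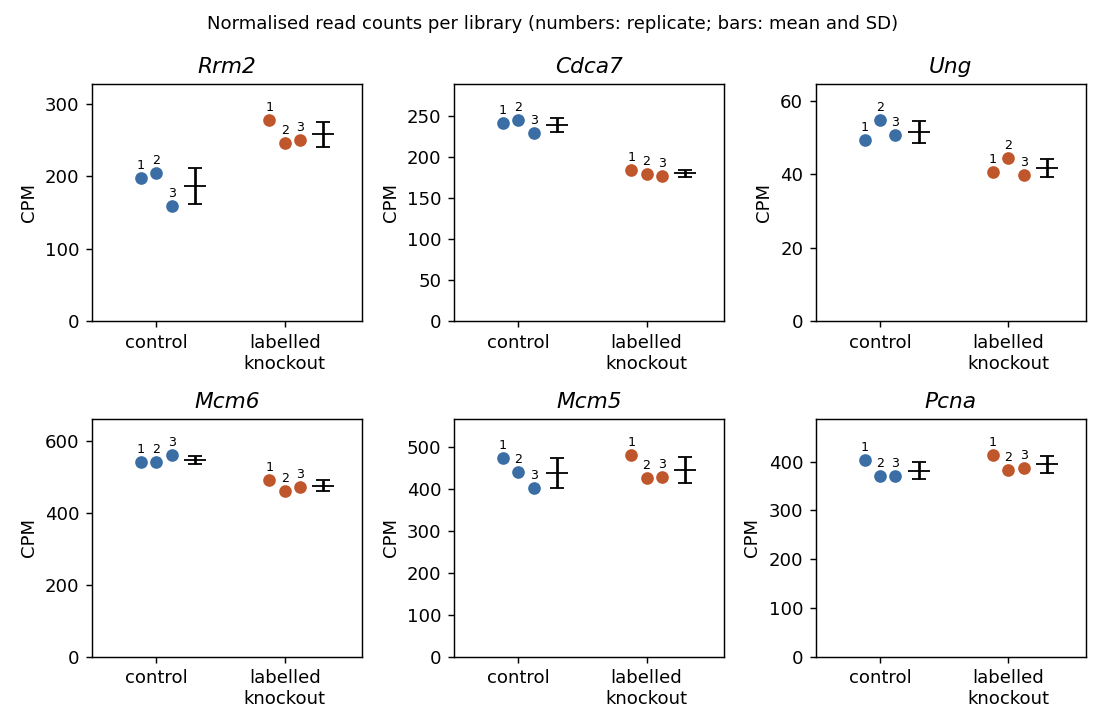
CPM of 6 genes in each library (points, numbered by replicate), with the mean and SD of each group (n = 3 each). Rrm2 is higher and Cdca7, Ung and Mcm6 are lower in all knockout libraries, though Mcm6 did not pass the test, and Mcm5 and Pcna overlap between the groups.

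A further 79 replication genes, listed by function and not among the 36, were all tested. Of these, 5 rose, 3 fell and 71 did not pass, which is 10.1% called against 8.42% of all genes, and the median log2 fold change was 0.00. E2f2, an activating E2F factor, had 109, 84.2 and 86.8 CPM in the knockout libraries against 54.3, 54.4 and 48.8 CPM in the controls (log2 fold change 0.83, standard error 0.10, adjusted p = 0.00492 by edgeR). The atypical repressor E2f7 fell, with 20.4, 16.5 and 16.3 against 32.8, 27.9 and 25.8 CPM (log2 fold change −0.70, standard error 0.13, adjusted p = 0.0186 by edgeR). Both sets of values were far apart, while the related E2f8 overlapped.

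Cyclin E1, encoded by Ccne1, which drives entry into S phase, rose (log2 fold change 0.68, edgeR adjusted p = 0.0165), as did the nuclease and helicase gene Dna2 (0.38, adjusted p = 0.0185). Genes of deoxynucleotide balance were among those called. Samhd1, which breaks down deoxynucleotide triphosphates, had 270, 312 and 329 against 190, 236 and 217 CPM (log2 fold change 0.50, edgeR adjusted p = 0.0238). Rrm2b, the p53-induced small subunit of ribonucleotide reductase, had 19.6, 18.8 and 20.1 against 15.1, 14.9 and 14.6 CPM (log2 fold change 0.39, edgeR adjusted p = 0.0469). Its level per length was 0.021 to 0.028 of that of Rrm2 in every library. That share rests on 9134 annotated exon bases for Rrm2b against 2771 for Rrm2, so its size is uncertain. The clamp loader gene Rfc3 fell and was lower in every knockout library than in any control (log2 fold change −0.27, edgeR adjusted p = 0.0442). E2f2 kept its call in all 6 fits that leave out a library, Ccne1 in 4, and Dna2, E2f7 and Samhd1 in 3 each, while Rfc3 (adjusted p 0.0681 to 0.156) and Rrm2b (0.0859 to 0.126) lost it in all 6. With the sex term none of the 8 was called, and their log2 fold changes kept their signs.

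Genes of G2 and M phase, which follow S phase, differed more between libraries than replication genes did. Their mean log2 CPM ran from 6.96 (control replicate 3) to 7.31 (knockout replicate 1), a range of 0.35, against 0.117 for the 36 replication genes and 0.0707 for the further 79. None of the 28 was called, with 1 at an unadjusted p under 0.05. The median log2 fold change was 0.09, with 23 positive and 5 negative, while 6788 of all 13679 genes tested were positive. With the sex term the median was 0.05 and 20 were positive. Knockout replicate 1 was highest for all 3 lists.

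**Figure D5:**
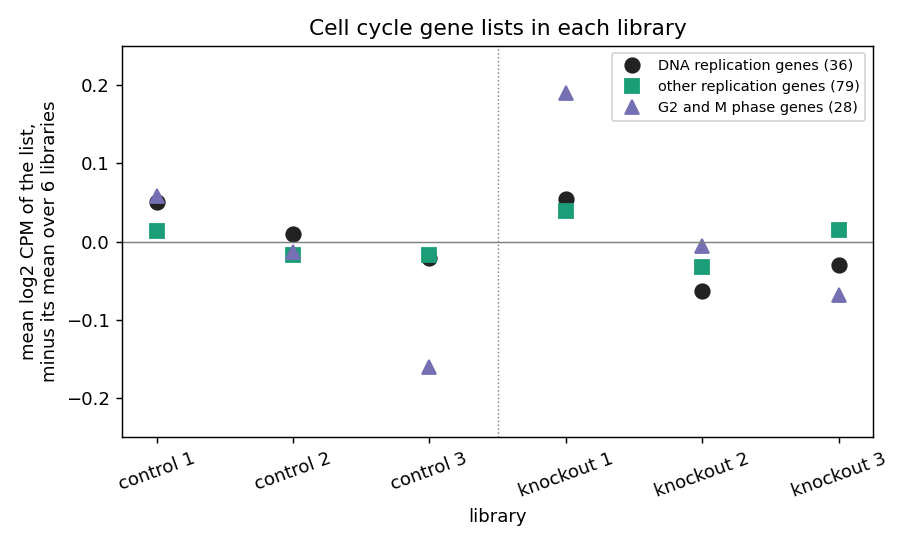
Mean log2 CPM of the 36 replication genes (circles), 79 further replication genes (squares) and 28 G2 and M phase genes (triangles) in each library, each minus its mean over the 6 libraries. Knockout replicate 1 is highest for each list, and control and knockout libraries overlap.

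Markers of several other cell types moved between the groups. Beside the counts below, 8.42% of all genes tested were called, 3.85% higher and 4.58% lower. Of 12 erythroblast markers tested, 6 were higher in the knockout libraries, and their summed level was 154 to 448 CPM against 84.5 to 215 CPM in the controls. Of 11 neutrophil markers tested 4 were higher (7169 to 9189 against 2967 to 5742 CPM), and of 12 monocyte and macrophage markers 6 (2188 to 2836 against 1358 to 1577 CPM). Of 5 mast cell and basophil markers tested, 3 were lower (290 to 390 against 479 to 733 CPM). Of 14 quiescent stem cell genes 3 were lower and 1 higher (402 to 475 against 463 to 629 CPM), and their median log2 fold change was −0.39, but 0.20 with the sex term. Of 9 B and plasma cell genes 1 was lower, though 8 had positive log2 fold changes and the median was 0.55 (632 to 840 against 465 to 714 CPM). Among 9 T and NK cell genes 1 was lower (252 to 320 against 210 to 282 CPM). For both lists the share called was 11.1%, close to that of all genes. Among 6 stroma and endothelium genes 2 were lower (116 to 150 against 168 to 201 CPM). With the sex term none of the erythroblast, neutrophil, monocyte and macrophage, mast cell and basophil, stem cell, T and NK cell or stroma and endothelium genes was called, and 1 of the B and plasma cell genes was. No marker in the count table was at 0 in all 6 libraries. The part of these cells in the levels of Rrm2, Cdca7, Ung and the E2F genes was not tested.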

How the data were processed

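RNA of 6 LSK libraries was sequenced after poly(A) selection with a directional library kit, per the labels' protocols. The authors deposited raw read counts per gene symbol, which are whole numbers with no normalization. STAR and mm10 are named in the submitters' processing notes, but no source used here gives the counting tool, its annotation or whether it used strand. The 36 genes, the lists and the tests were chosen with earlier results of these data known.

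Counts were filtered with filterByExpr (minimum count 10, minimum total 15), scaled by TMM and tested with edgeR 4.0.16 in R 4.3.3 (quasi-likelihood F test, group as the single term). P-values were adjusted by Benjamini-Hochberg over 13679 genes, and the threshold was 0.05. Log2 CPM used a prior count of 2. Positions and exon lengths came from GENCODE M21 on GRCm38 (mm10), and promoter sequences from RefSeq (GRCm38.p6). No library repeated another (chi-square per degree of freedom at least 10.2). The edgeR script was tested on simulated data. All 36 genes are named; values in every library are given for genes past the test, the MCM genes, Pcna, Tyms, Rrm1, the 3 with the next smallest p and others chosen after their values were seen. Alternatives were RLE and upper-quartile scaling, no filter, DESeq2 1.42.0, a replicate block, a sex term and leaving out each library. The result of 1 further replication gene is not reported here.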

Additional observations from a re-analysis of the deposited data

How the results depend on the processing

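The list as a whole kept its near-zero shift under every alternative run: the median log2 fold change of the 36 genes stayed between −0.05 and 0.02 and moved by less than the SD within groups. Its sign is therefore not fixed. With the sex term, no gene of the 36 was called higher or lower (0 and 0), nor any of the 79 further replication genes (0 and 0), and 7 and 36 of all genes were; that fit rests on 1 control library. DESeq2 size factors in edgeR left 1 of the 36 lower. DESeq2 called 833 of all genes higher and 835 lower, and no filter on low counts gave 770 and 814. When each library was left out in turn, genes called higher ran from 119 to 440 and lower from 171 to 544, those of the 36 from 0 to 1 higher and 1 lower in each fit, and those of the 79 from 1 to 4 higher and 0 to 2 lower. The lowest counts over all genes came without knockout replicate 2. Of the 36, the gene called lower was Cdca7 each time. The replicate block called 1169 higher and 1003 lower of all genes and 1 higher and 3 lower of the 36. In their deviations from the group means, same-numbered libraries correlated at 0.29, −0.005 and 0.34. Knockout replicate 1 with control replicate 3 gave −0.33, and knockout replicate 3 with control replicate 1 gave −0.31. The labels name no animal or litter, so whether the numbers pair the libraries is not settled. Upper-quartile scaling gave the other sign for 3 of the 36 and the sex term for 4, none of them past the test. Depth limits the genes with fewest reads, such as Dscc1.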
